A study of Mus musculus with 6 samples.

Results

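The genes described here encode the outer part of Wnt signalling: the ligands, the proteins that secrete them, the receptors at the cell surface, and the secreted or membrane proteins that limit them. They were chosen by a rule on names that uses no measured value, although earlier results of these data were known. The rule takes symbols that begin with Wnt, Fzd, Sfrp, Dkk or Rspo and a digit or with Kremen. It adds Wif1, Lrp5, Lrp6, Ror1, Ror2, Ryk, Porcn, Wls, Lgr4 and Lgr6. All 54 such genes of the RefSeq mouse list were measured, of 19938 genes in all, and fall into 19 Wnt ligands, 2 secretion factors, 16 receptors and co-receptors, 6 R-spondins and R-spondin receptors, and 11 inhibitors and Kremen genes. One of the 16, Fzd10os, is by its name a transcript of the strand opposite to Fzd10 and not a receptor.

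The data are expression arrays of 6 colon tumours from 20-week-old mice, 3 of each of 2 genotypes. The control tumours were Dnmt1chip/+; ApcMin/+, with a hypomorphic (chip) and a wild-type allele of Dnmt1, the gene of the enzyme that copies DNA methylation to new strands; the hypomethylated tumours were Dnmt1chip/c; ApcMin/+, in which the chip allele is paired with the knockout allele c; the design text gives low methylation of satellite repeats for them. Both groups carried ApcMin, a truncating mutation of Apc that gives intestinal tumours, were hybrids of C57BL/6 and 129Sv4, and received 2% (w/v) dextran sodium sulfate, an agent that injures the colon, from 6 weeks of age. The sample descriptions give 1 number to all 3 hypomethylated tumours and another to 2 of the 3 control tumours, and no label says that each tumour came from its own mouse. The p-values therefore measure the spread between these tumours, which may be smaller than that between mice, and a difference between single mice cannot be told apart from one between genotypes.

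Wnt ligands are lipid-modified by Porcn, carried to the cell surface by Wls, and bound there by Frizzled receptors (Fzd) with the co-receptors Lrp5 and Lrp6, which stabilises β-catenin. R-spondins bind Lgr receptors and keep Frizzled receptors on the surface, whereas Sfrp proteins and Wif1 bind ligands, and Dkk proteins act on Lrp5 and Lrp6 with the help of Kremen receptors. In the intestine this signal maintains the crypt stem cells; the ApcMin mutation acts further down, so that β-catenin signalling in tumours of this kind runs without much need of a ligand. Ror1, Ror2 and Ryk are receptors of a separate branch, driven by ligands such as Wnt5a, that steers cell shape and movement.

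The deposited values were read as log2 (no label states the base, which was inferred), and each probe set is centred on its median over the 6 arrays. Only differences between tumours can be read from them, so the genes cannot be ranked by abundance, and the middle pair of values of a gene measured by 1 probe set are equal and opposite. As a check on the groups, Dnmt1 was lower by 0.87 ± 0.06 (SE) on the log2 scale in the hypomethylated tumours (limma, adjusted p = 3.13e-04); whether its probes cover the stretches that the alleles change is not known here, so this does not check the genotypes. In bulk tumours, fewer cells of a type and less RNA per cell cannot be told apart.

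More members were lower than higher. Of the 54 genes, 20 (37.0%) fell and 4 (7.41%) rose in the hypomethylated tumours in limma at an adjusted p under 0.05, and 30 did not pass. Over all genes 32% passed, 21.3% lower and 10.7% higher. The members' median difference was -0.08 on the log2 scale, against -0.01 over all genes, and their differences ran from -1.29 (Wnt10a) to 0.83 (Fzd5). The changes were moderate: the median size of the 24 changes was 0.66, and 4 genes passed 2-fold, all of them lower: Wnt10a, Wnt5a, Fzd10 and Lgr6. In each of the 24 genes the values of one group lay wholly above those of the other. Groups that did not overlap were found in 24 members on the lower side and 5 on the higher side, against 28.5% and 17.9% of all genes (46.4% in either direction). For a single gene the exact permutation test, two-sided, cannot go below p = 0.1 with 3 tumours against 3, and 29 members reached that value.

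**Figure D1:**
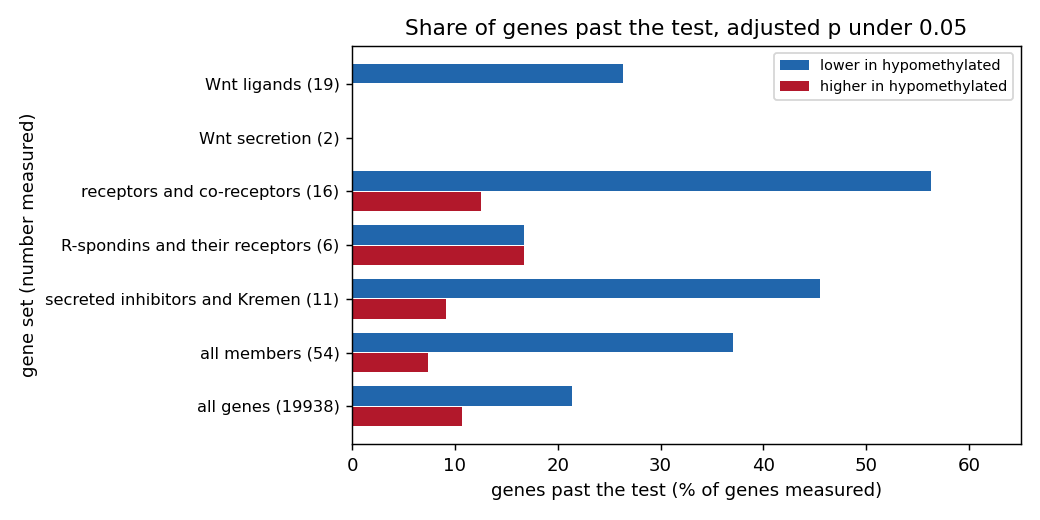
Share of genes past the test (limma, adjusted p under 0.05), in percent of the genes measured, for each class, for all 54 members and for all 19938 genes; blue bars are genes lower and red bars genes higher in the hypomethylated tumours. Receptors and co-receptors have the largest lower share of the 5 classes, 56.2%, against 21.3% of all genes.

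Among the Wnt ligands 5 of 19 fell, Wnt10a, Wnt5a, Wnt6, Wnt16 and Wnt7a, and none rose (0 also at an unadjusted p under 0.05). The lower share, 26.3%, was near the 21.3% of all genes, and the median over the 19 was 0.01 on the log2 scale. With a lower share so near that of all genes, the mix of calls is not read as a trait of the ligands.

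Wnt10a, a ligand of the β-catenin branch, had centred log2 values of 0.75, 0.37 and 0.96 in control tumours 1 to 3 and of -0.37, -0.52 and -0.91 in hypomethylated tumours 1 to 3. Every hypomethylated tumour was below every control tumour, and control tumour 2 was the nearest to the hypomethylated ones. Wnt10a fell by 1.29 ± 0.18 (SE) on the log2 scale, 2.45-fold (limma, adjusted p = 0.00265), the largest difference among the members. Wnt6, the next gene to Wnt10a on chromosome 1 with no coding gene between them, had 0.50, 0.30 and 0.78 against -0.30, -0.53 and -0.46. The groups were again apart, with the control tumours in the same order, and Wnt6 fell by 0.95 ± 0.13 (1.94-fold, adjusted p = 0.00209). There are 3 other pairs of Wnt genes that neighbour each other in this way: Wnt3a with Wnt9a, Wnt9b with Wnt3, and Wnt10b with Wnt1. No gene of these 3 pairs passed the test, and their differences lay between -0.08 and 0.12.

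Wnt5a, a ligand of the branch that acts apart from β-catenin and in the gut a product mainly of mesenchymal cells, had values of 0.35, 0.68 and 0.64 in the controls, against -0.35, -0.78 and -0.65 in the hypomethylated tumours. The first tumour of each group lay nearest to the other group. Wnt5a fell by 1.15 ± 0.14 on the log2 scale, 2.22-fold (limma, adjusted p = 0.00132). Its close relative Wnt5b differed by -0.04 ± 0.06 (adjusted p = 0.699), with overlapping groups. Wnt16 had 0.26, 0.41 and 0.48 against -0.26, -0.34 and -0.38. These were narrow and well separated groups, and Wnt16 fell by 0.71 ± 0.07 (1.64-fold, adjusted p = 8.65e-04). Wnt7a, with 0.19, 0.13 and 0.38 against -0.22, -0.13 and -0.21, fell by 0.42 ± 0.08 (1.34-fold, adjusted p = 0.00657).

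The other 14 ligands did not pass, with differences between -0.16 and 0.22 and adjusted p-values from 0.148 to 0.972. The groups overlapped in 13 of them. The 4 with the largest size were Wnt8a at 0.22, Wnt7b at -0.16, Wnt11 at 0.12 and Wnt4, the only member with more than 1 probe set, at 0.12. Wnt11, at -0.08, -0.07 and -0.01 in the controls, against 0.03, 0.14 and 0.01 in the hypomethylated tumours, was the one whose groups did not overlap (adjusted p = 0.187). Wnt3, a ligand made by Paneth cells in the small intestine, differed by 0.12 ± 0.14 and had its lowest and its highest value both in hypomethylated tumours, -0.23 and 0.28.

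The start regions of Wnt6 and Wnt16 are shown because both ligands fell while their content of CpG, the dinucleotide that Dnmt1 methylates, differs. They run from 250 bases before to 50 after the start listed first in RefSeq (GRCm38.p6), 5′ to 3′ on the strand of the gene, with every CpG in capitals. Wnt6 lies at chr1:74771642-74771941 (plus strand) and holds 31 CpG; Wnt16 lies at chr6:22287977-22288276 (plus strand) and holds 10.
Wnt6: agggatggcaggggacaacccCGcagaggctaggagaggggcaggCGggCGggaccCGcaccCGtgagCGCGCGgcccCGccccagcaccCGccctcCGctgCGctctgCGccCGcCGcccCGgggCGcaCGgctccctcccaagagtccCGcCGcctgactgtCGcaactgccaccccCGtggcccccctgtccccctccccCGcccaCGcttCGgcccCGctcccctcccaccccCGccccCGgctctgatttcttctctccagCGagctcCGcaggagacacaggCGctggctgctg
Wnt16: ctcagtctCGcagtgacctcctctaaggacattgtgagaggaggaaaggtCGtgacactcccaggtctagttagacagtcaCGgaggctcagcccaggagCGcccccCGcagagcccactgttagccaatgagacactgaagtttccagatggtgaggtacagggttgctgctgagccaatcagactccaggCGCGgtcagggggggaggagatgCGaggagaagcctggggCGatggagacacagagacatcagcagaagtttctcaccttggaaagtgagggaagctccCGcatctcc
Methylation of these regions was not measured in these arrays.

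The 2 genes of ligand secretion did not pass. Porcn, the acyltransferase that attaches the lipid, had 0.01, 0.10 and 0.16 in the controls, against -0.01, -0.33 and -0.29 in the hypomethylated tumours. Its difference was -0.30 ± 0.10 (limma, adjusted p = 0.0557), and without hypomethylated replicate 1 it was -0.40 (adjusted p = 0.00759). Wls, the carrier of the ligands, differed by -0.09 ± 0.06 (adjusted p = 0.334). Of the 2 genes, 1 was lower at an unadjusted p under 0.05.

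Frizzled receptors changed in both directions. Of the 16 genes of this class 9 (56.2%) fell and 2 (12.5%) rose, against 21.3% and 10.7% of all genes. The class median was -0.31 on the log2 scale. Fzd10, Fzd3, Fzd6, Fzd7, Fzd2 and Fzd4 fell, Fzd5 and Fzd9 rose, and Fzd1, Fzd8 and Fzd10os did not pass.

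Fzd10 had the largest fall of these receptors, with values of 0.69, 0.30 and 0.99 in the controls, against -0.47, -0.30 and -0.60 in the hypomethylated tumours. The control tumours were spread more widely than the hypomethylated ones, with an SD of 0.35 against 0.15 (n = 3 each), and the groups stayed apart. It fell by 1.11 ± 0.17 (SE) on the log2 scale, 2.16-fold (limma, adjusted p = 0.00358). Fzd10os, on the opposite strand, had 0.01, -0.18 and 0.17 against -0.01, 0.11 and -0.05 and differed by 0.02 ± 0.10 (adjusted p = 0.921). Fzd3, a receptor best known from axon guidance, had 0.11, 0.46 and 0.47 against -0.11, -0.77 and -0.87. The first tumour of each group was near the middle and the others far from it, so its SE was the largest of these receptors: it fell by 0.93 ± 0.21 (1.91-fold, adjusted p = 0.0134).

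Fzd6 had 0.25, 0.38 and 0.32 in the controls, against -0.25, -0.56 and -0.34 in the hypomethylated tumours, and fell by 0.70 ± 0.09 on the log2 scale (1.62-fold, adjusted p = 0.00167). Fzd7, a receptor of intestinal stem cells, had 0.34, 0.37 and 0.13 against -0.50, -0.46 and -0.13, and fell by 0.64 ± 0.12 (1.56-fold, adjusted p = 0.00616). Control tumour 3 and hypomethylated tumour 3 were the closest pair of Fzd7. Fzd2, at 0.24, 0.10 and 0.35 against -0.10, -0.30 and -0.17, fell by 0.42 ± 0.09 (1.33-fold, adjusted p = 0.0101). Fzd4, the receptor of norrin in blood vessels as well as of Wnt ligands, had 0.26, 0.11 and 0.11 against -0.28, -0.16 and -0.11, and fell by 0.35 ± 0.07 (1.27-fold, adjusted p = 0.0116). In the fit that blocks on the titles' replicate numbers the adjusted p of Fzd4 was 0.0578, so this call depends on the form of the fit.

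Fzd5, the receptor that Paneth cells of the small intestine need for their maturation, went the other way and showed the largest rise among the members. It had -0.37, -0.42 and -0.17 in the controls, against 0.17, 0.75 and 0.62 in the hypomethylated tumours, with hypomethylated tumour 1 well below the other two. Fzd5 rose by 0.83 ± 0.15 (SE) on the log2 scale, 1.78-fold (limma, adjusted p = 0.00643). Fzd9 had -0.19, -0.31 and -0.11 against 0.17, 0.11 and 0.25 and rose by 0.37 ± 0.07 (1.3-fold, adjusted p = 0.00818). Fzd1 and Fzd8 had overlapping groups and differences of -0.08 ± 0.12 and -0.07 ± 0.08.

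The start regions of Fzd5 and Fzd10 are shown as those of the receptors with the largest rise and the largest fall; both are rich in CpG (capitals), with 38 in Fzd5 at chr1:64737701-64738000 (minus strand) and 45 in Fzd10 at chr5:128600856-128601155 (plus strand), in the same RefSeq window and build.
Fzd5: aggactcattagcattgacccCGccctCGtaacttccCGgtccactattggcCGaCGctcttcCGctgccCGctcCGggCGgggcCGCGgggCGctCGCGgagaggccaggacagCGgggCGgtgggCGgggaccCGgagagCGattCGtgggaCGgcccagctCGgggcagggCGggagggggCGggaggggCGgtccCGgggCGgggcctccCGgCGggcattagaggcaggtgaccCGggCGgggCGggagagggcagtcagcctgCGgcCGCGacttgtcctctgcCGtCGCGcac
Fzd10: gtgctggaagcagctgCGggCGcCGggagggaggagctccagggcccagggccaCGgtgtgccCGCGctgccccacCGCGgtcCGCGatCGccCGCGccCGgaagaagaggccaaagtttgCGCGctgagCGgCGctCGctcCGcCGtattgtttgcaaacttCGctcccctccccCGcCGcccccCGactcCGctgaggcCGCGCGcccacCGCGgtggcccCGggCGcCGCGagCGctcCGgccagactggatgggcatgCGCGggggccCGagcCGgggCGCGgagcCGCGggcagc
Methylation of either region was not measured.

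The receptors of the branch apart from β-catenin all fell. Ryk had 0.16, 0.12 and 0.13 in the controls, against -0.12, -0.19 and -0.13 in the hypomethylated tumours, and fell by 0.28 ± 0.05 on the log2 scale (1.21-fold, limma, adjusted p = 0.00703). Ror2, the receptor of Wnt5a in limb and gut development, had 0.21, 0.12 and 0.11 against -0.24, -0.23 and -0.11, and fell by 0.34 ± 0.06 (1.27-fold, adjusted p = 0.00666). The tumours of a group were close to each other in both genes, so that small differences passed. Ror1 was less firm, with 0.09, 0.30 and 0.39 against -0.09, -0.10 and -0.64, a difference of -0.54 ± 0.16 (1.45-fold, adjusted p = 0.0402). Much of it came from hypomethylated tumour 3: without that tumour the difference of Ror1 was -0.36. Its call was lost without control replicate 1, 2 or 3, with adjusted p-values of 0.0554, 0.109 and 0.111, and with the replicate block, at an adjusted p = 0.0882. The co-receptors of the β-catenin branch did not pass: Lrp5 differed by -0.14 ± 0.06 (adjusted p = 0.110) and Lrp6 by -0.14 ± 0.05 (adjusted p = 0.0854), although neither had overlapping groups. With the number in the sample descriptions as a random block, Lrp6 passed (adjusted p = 0.0400). In that fit 7941 genes passed, against 6380 in the main fit. No such number spans both genotypes, so the fit cannot separate a shared origin from the genotype.

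**Figure D2:**
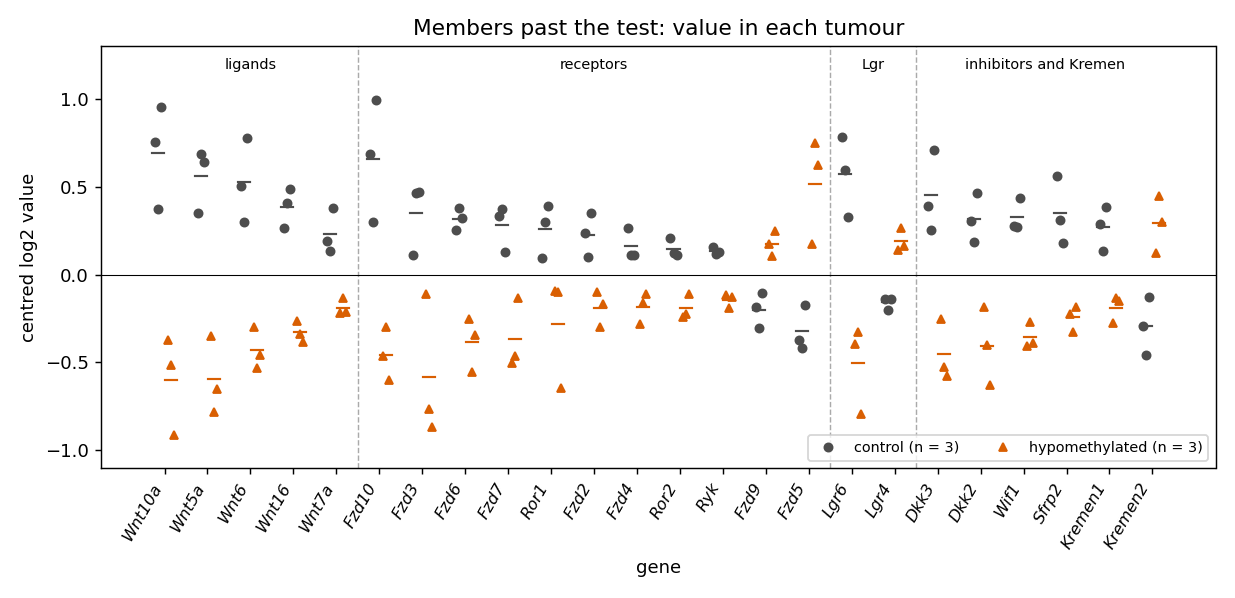
Centred log2 value of the 24 members past the test in each of the 6 tumours, grouped by class and ordered by the difference; grey circles are control tumours, orange triangles hypomethylated tumours and short lines the group means (n = 3). The groups do not overlap in any of the 24 genes, and Fzd5, Fzd9, Lgr4 and Kremen2 are the ones that lie higher in the hypomethylated tumours.

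The receptors of R-spondins, Lgr4 and Lgr6, moved apart, while the R-spondins did not pass. Lgr6, a receptor that marks stem cells of the skin, had 0.78, 0.60 and 0.33 in the controls, against -0.40, -0.33 and -0.79 in the hypomethylated tumours. It fell by 1.08 ± 0.16 (SE) on the log2 scale, 2.11-fold (limma, adjusted p = 0.00281). Lgr4, the receptor that acts with Lgr5 in the crypts, had -0.14, -0.20 and -0.14 against 0.14, 0.26 and 0.16. The spread within its groups was small, with SDs of 0.04 and 0.07, and Lgr4 rose by 0.35 ± 0.06 (1.27-fold, adjusted p = 0.00511). Lgr5 itself is not among the 54 genes; it differed by -0.06 ± 0.09 (adjusted p = 0.677), so that the 3 receptors showed a rise, a fall and a difference that did not pass. The ligands Rspo1, Rspo2, Rspo3 and Rspo4 had overlapping groups, differences between 0.02 and 0.10 and adjusted p-values from 0.352 to 0.921.

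The start regions of this receptor pair are shown for the same reason, as those of related genes with opposite changes: Lgr4 at chr2:109917397-109917696 (plus strand) holds 18 CpG and Lgr6 at chr1:135105227-135105526 (minus strand) holds 24, in capitals.
Lgr4: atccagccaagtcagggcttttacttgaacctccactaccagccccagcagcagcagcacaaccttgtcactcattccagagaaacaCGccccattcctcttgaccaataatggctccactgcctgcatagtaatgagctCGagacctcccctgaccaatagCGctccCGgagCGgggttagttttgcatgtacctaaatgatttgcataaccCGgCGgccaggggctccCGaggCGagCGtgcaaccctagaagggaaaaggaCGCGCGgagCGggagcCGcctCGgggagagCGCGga
Lgr6: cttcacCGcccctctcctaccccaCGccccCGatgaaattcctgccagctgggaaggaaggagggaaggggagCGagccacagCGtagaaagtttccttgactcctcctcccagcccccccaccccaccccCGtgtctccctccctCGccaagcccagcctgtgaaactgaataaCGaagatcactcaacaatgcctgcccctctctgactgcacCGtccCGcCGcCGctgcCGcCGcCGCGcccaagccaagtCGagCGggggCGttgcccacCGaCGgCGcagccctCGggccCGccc
These regions too were not measured for methylation.

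Of the 11 inhibitors and Kremen genes 5 (45.5%) fell and 1 (9.09%) rose, against 21.3% and 10.7% of all genes. The class median was -0.35 on the log2 scale. The genes that fell were those of the secreted proteins Dkk3, Dkk2, Wif1 and Sfrp2 and of the receptor Kremen1. Some secreted inhibitors were thus lower in the same tumours as some ligands and receptors. Wif1, which binds Wnt ligands outside the cell, had 0.28, 0.27 and 0.43 in the controls, against -0.41, -0.27 and -0.39 in the hypomethylated tumours. It fell by 0.68 ± 0.07 (SE) on the log2 scale, 1.61-fold (limma, adjusted p = 8.65e-04), one of the firmest changes among the members. Wif1 is known as a gene silenced by promoter methylation in tumours, and its start region at chr10:121033754-121034053 (plus strand), with 25 CpG in capitals, is shown for that reason.
Wif1: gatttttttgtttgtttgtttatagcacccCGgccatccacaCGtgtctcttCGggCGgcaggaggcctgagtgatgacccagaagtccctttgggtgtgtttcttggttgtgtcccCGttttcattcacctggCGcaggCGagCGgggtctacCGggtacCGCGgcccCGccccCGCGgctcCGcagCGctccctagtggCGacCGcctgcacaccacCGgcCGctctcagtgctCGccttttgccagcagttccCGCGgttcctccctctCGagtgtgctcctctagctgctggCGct
A fall of Wif1 in tumours of the low-methylation genotype is a measurement of RNA only; methylation of this region was not measured.

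Dkk3, a secreted relative of the Dkk inhibitors, had 0.39, 0.25 and 0.71 in the controls, against -0.25, -0.52 and -0.58 in the hypomethylated tumours, and fell by 0.90 ± 0.14 on the log2 scale (1.87-fold, adjusted p = 0.00319). Dkk2 had 0.30, 0.19 and 0.46 against -0.19, -0.40 and -0.63, and fell by 0.72 ± 0.12 (1.65-fold, adjusted p = 0.00523). In both genes control tumour 2 was the lowest control and hypomethylated tumour 1 the highest of its group. Sfrp2, which carries a Frizzled-like domain that binds ligands, had 0.56, 0.31 and 0.18 against -0.23, -0.32 and -0.18, and fell by 0.59 ± 0.10 (1.51-fold, adjusted p = 0.00527).

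The Kremen genes, whose products bind Dkk proteins, changed in opposite directions. Kremen1 had 0.29, 0.13 and 0.39 in the controls, against -0.28, -0.13 and -0.15 in the hypomethylated tumours, and fell by 0.46 ± 0.08 on the log2 scale (1.37-fold, limma, adjusted p = 0.00586). Kremen2 had -0.29, -0.46 and -0.13 against 0.13, 0.45 and 0.30, and rose by 0.58 ± 0.11 (1.5-fold, adjusted p = 0.00787).

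The other 5 inhibitors, Dkk1, Dkk4, Sfrp1, Sfrp4 and Sfrp5, all had overlapping groups. Dkk1, a direct target of β-catenin as well as its antagonist, differed by 0.24 ± 0.12 (adjusted p = 0.170). Sfrp1 had the widest spread of all members, with -0.40, 0.06 and 0.14 in the controls, against 0.22, -1.41 and -0.06 in the hypomethylated tumours. A single tumour, hypomethylated tumour 2, lay far below the rest, and the difference of Sfrp1 was -0.35 ± 0.40 with it (adjusted p = 0.571) and 0.15 ± 0.18 without it (adjusted p = 0.638). Frzb, also known as the secreted Frizzled-related protein Sfrp3, does not match the naming rule; it had 0.34, 0.49 and 0.84 against -0.35, -0.54 and -0.34 and fell by 0.97 ± 0.13 (1.95-fold, adjusted p = 0.00223).

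**Figure D3:**
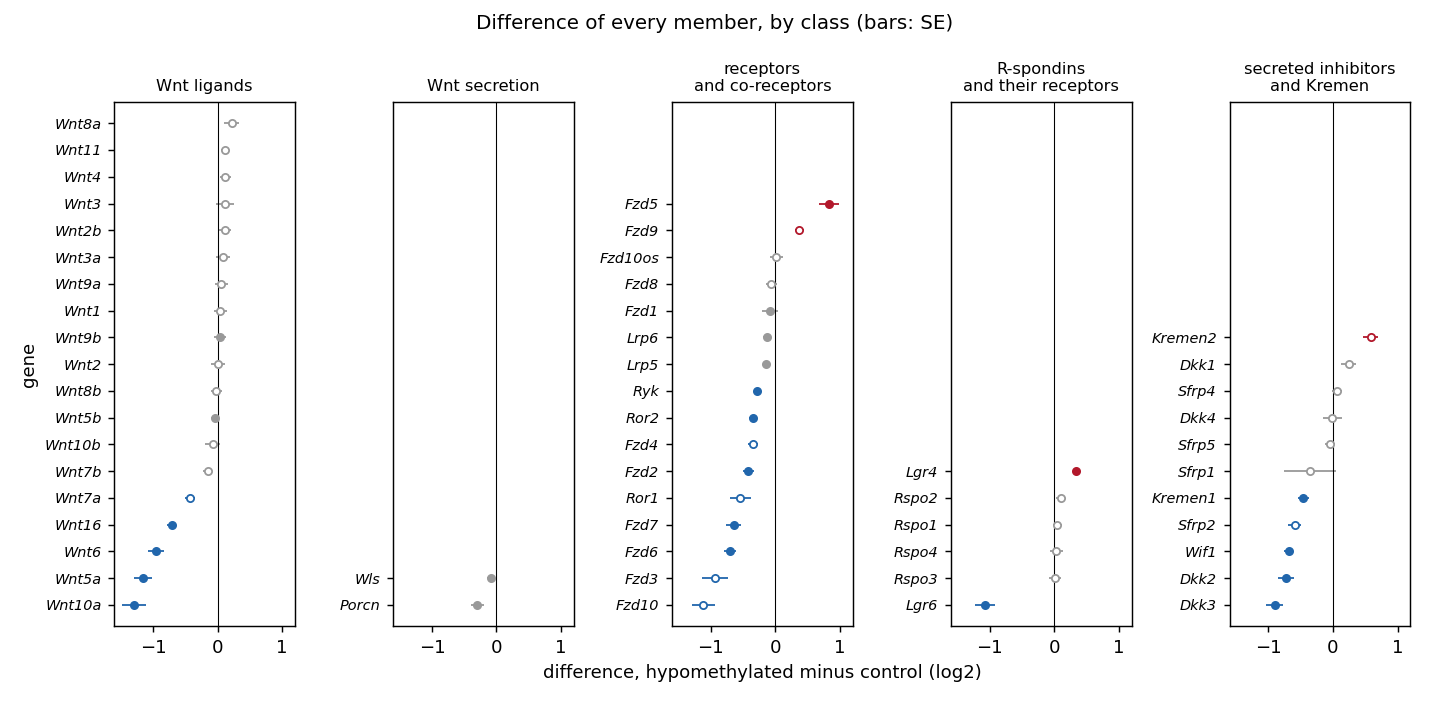
Difference between hypomethylated and control tumours of all 54 members on the log2 scale, by class, with bars for the SE of the fit; blue genes fell, red genes rose and grey genes did not pass the test (adjusted p under 0.05). Filled points are genes whose stored values point to a level of 8 or above in all tumours; most of the grey ligands, near 0, are open points.

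The stored numbers keep one trace of the level. Numbers of single precision at 8 or above have a coarser step than smaller ones, and a gene whose values all lie on that step was taken to have been at 8 or above in every tumour before centring; this is an inference, and a lower gene can fall on the step by chance. By this measure 23 of the 54 members were at 8 or above, among them 6 of 19 ligands (Wnt10a, Wnt5a, Wnt6, Wnt16, Wnt5b and Wnt9b) and 9 of 16 receptors and co-receptors. Of the 23 members 16 (69.6%) passed the test, against 48.6% of all genes on the coarser step. Of the 31 others 8 (25.8%) passed, against 14.8% of all genes off it. Among the ligands 4 of the 6 passed and 1, Wnt7a, of the other 13. The array's background is not known here, and whether the ligands with differences near 0 lie close to it was not tested.

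Across the 35 members with an entry in the RefSeq promoter table the number of CpG in the 300 bases around the start ran from 6 (Wnt8b) to 58 (Wnt9a). The median was 27 per region, against 7 over all 27025 promoters of the table. Those promoters were not limited to the 19938 genes measured here. Some members lay near that median of 7, such as Wnt8b and Dkk1 (9). The members' median was 25 in the 13 that fell, 28 in the 4 that rose and 28 in the 18 that did not pass. The ranges overlapped widely, from 10 to 45 in the first and from 17 to 53 in the second of these groups. The sequence ATCAAAG, a core of the sites that bind Tcf and Lef factors, was searched on both strands and stood in 1 of the 35 regions, that of Wnt11, against 3.72% of all promoters of the table.

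Further along the pathway most changes were falls as well. Of 39 measured genes of cytoplasmic and nuclear Wnt signalling 22 (56.4%) fell and 2, Tcf7l2 (0.46) and Tle4 (0.44), rose. Over all genes 21.3% fell, and 33.8% of those on the coarser step, on which 35 of the 39 lie. The median difference of the 39 was -0.22 on the log2 scale. The 5 with the smallest p were the kinase gene Csnk1e (-0.83), the corepressor gene Tle3 (-0.74), the transcription factor gene Lef1 (-1.09), the feedback gene Axin2 (-0.69) and Dvl2, which relays the signal from Frizzled receptors (-0.56). The falls numbered 13 without control replicate 1. Of 38 other regulators outside the cell or in its membrane 17 (44.7%) fell and 2, Dkkl1 (0.54) and Sulf2 (0.70), rose. Of the 38, 22 lie on the coarser step. The median was -0.30. Here the 5 were Znrf3 and Rnf43, the ligases that remove Frizzled receptors and on which R-spondins act (-0.97 and -0.63), Bambi (-1.16), the polarity co-receptor Ptk7 (-0.55) and the glypican gene Gpc1 (-1.09). Among 23 planar cell polarity genes 8 (34.8%) fell and none rose in limma (10 fell and 0 rose at an unadjusted p under 0.05). Of the 23, 14 lie on the coarser step, where 33.8% of all genes fell, against 8.41% off it. The share was not compared within each step and is not read as a trait of these genes. The falls included Vangl2 (-1.11), Vangl1 (-0.63), Prickle2 (-0.98), Dact1 (-1.01) and Invs (-0.38), and 5 genes fell without control replicate 2. The higher genes were named after their values were seen.

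Markers of the cells that a tumour can hold moved with the genotype too. Over all genes 10.7% rose and 21.3% fell, and on the coarser step 14.8% rose and 33.8% fell. On that step lie 11 of the 12 epithelial markers and 11 of the 14 fibroblast markers. The same holds for 7 of the 12 markers of the fibroblasts below the epithelium. Of 12 epithelial markers 9, or 75%, rose (none fell in limma, 1 at an unadjusted p under 0.05). The mean centred value of the 12 lay between -0.45 and -0.21 in the control tumours and between 0.20 and 0.34 in the hypomethylated ones. The differentiation keratin gene Krt20 had the largest difference, 3.52 on the log2 scale (limma, adjusted p = 0.00708), with -2.47, -3.95 and -0.95 in the controls. Over the other 11 markers the means lay between -0.15 and -0.14 and between 0.13 and 0.26. Krt20 was set aside after its values were seen. Of these 11 markers Vil1 (1.02), Cdh17 (0.63) and Cldn7 (0.52) had the largest differences. Cdh1 (0.18), Krt8 (0.26) and Krt19 (0.38), found in most epithelial cells, rose too, whereas Epcam (0.06), Krt18 (-0.02) and Cldn4 (-0.21) did not pass. Of 14 fibroblast markers 8 (57.1%) fell and 1, Fap, rose. Their means ran from 0.12 to 0.40 in the control and from -0.45 to -0.11 in the hypomethylated tumours. The falls numbered 5 without control replicate 3 and 4 without hypomethylated replicate 3. Of 12 markers of the fibroblasts below the epithelium 9 (75%) fell and none rose (0 at an unadjusted p under 0.05). Their means ran from 0.23 to 0.43 against -0.42 to -0.20. This list holds Frzb, itself a Wnt inhibitor, and Foxl1, the factor that marks Wnt-producing cells below the crypts, which had 0.61, 0.17 and 0.62 against -0.37, -0.17 and -0.32 and fell by 0.76 ± 0.13 (adjusted p = 0.00516).

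Over all genes 21.3% fell, and 33.8% of those on the coarser step. Of 13 endothelial markers, 11 of them on that step, 8 (61.5%) fell and 1, Tek, rose. Their means ran from 0.10 to 0.18 against -0.37 to -0.04. The falls numbered 5, 3 and 4 without control replicate 1, 2 and 3, and 5 and 4 without hypomethylated replicate 2 and 3. Of 12 smooth muscle markers, 5 of them on the coarser step, 5 (41.7%) fell and 1, Tpm2, rose. Their means ran from 0.07 to 0.27 against -0.21 to -0.04. The largest falls were those of Acta2 (-0.93) and Kcnmb1 (-0.85). Myh11 (-0.17), Des (-0.14) and Cnn1 (-0.23) were among the 6 that did not pass. Here 3 fell without hypomethylated replicate 2 and 3 without hypomethylated replicate 3. The group means of the macrophage, T and NK cell, B and plasma cell, and enteric neuron and glia lists overlapped between the genotypes. Of 13 macrophage markers, 10 of them on the coarser step, 4 (30.8%) fell and 1, Mertk, rose. These falls ran from 0 to 9 when each tumour was left out in turn. Of 10 enteric neuron and glia markers 2 (20%) fell and 1 (10%) rose. Of 9 B and plasma cell markers 1 (11.1%) rose, and none of 11 T and NK cell markers passed. The group means of 7 mesothelial markers were higher, from -0.15 to -0.00 against 0.06 to 0.23. Of the 7 markers 3 rose, 42.9% against 10.7% of all genes (1 without control replicate 1 and 1 without control replicate 2). One of these is Krt19, also counted in the epithelial list, and the defining mesothelial markers Wt1 (0.02), Upk3b (0.13) and Muc16 (-0.17) did not pass. Since the values are centred, they do not show whether a defining marker is at the array's floor. The part of a different cell makeup in the falls of Wnt5a, Dkk2, Dkk3, Sfrp2, Ror1 and the other members was not tested.

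**Figure D4:**
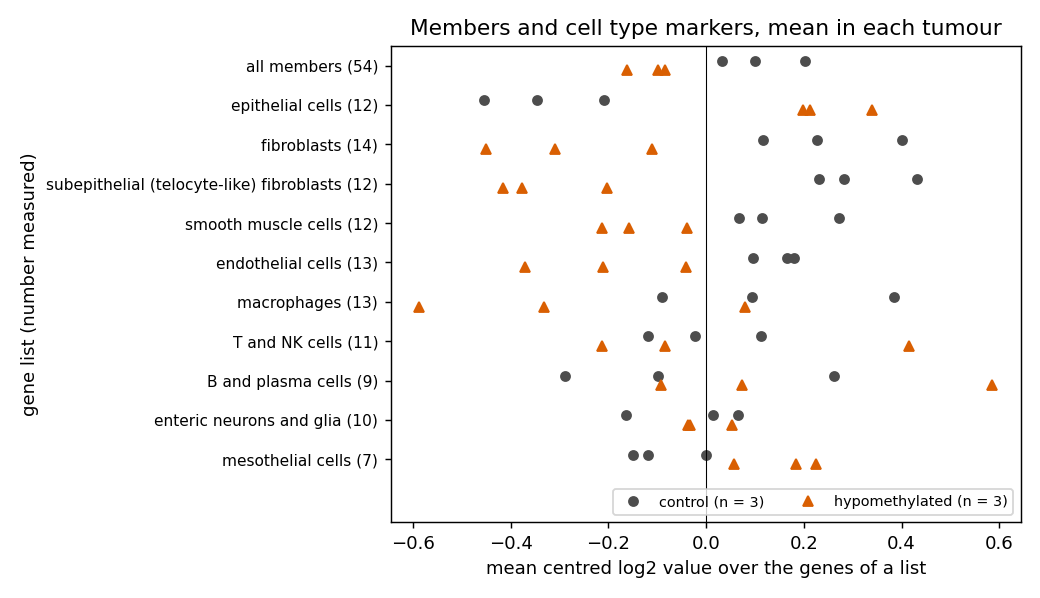
Mean centred log2 value over the 54 members and over each list of cell type markers in each tumour (grey circles, control; orange triangles, hypomethylated; n = 3 each). The members lie between 0.03 and 0.20 in the control tumours and between -0.16 and -0.08 in the hypomethylated ones, on the same side as the fibroblast, smooth muscle and endothelial lists and opposite to the epithelial list.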

How the data were processed

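RNA of 6 colon tumours was hybridised to Affymetrix mouse Gene 1.0 ST arrays, per the labels. The deposited table holds 28856 probe sets with values taken as log2, each centred on its median over the 6 arrays (100% within 1e-06 of 0); how the arrays were normalized and summarised is not given in the sources used here. Probe sets with exactly 1 gene symbol (21789) were averaged per gene, giving 19938 genes; 1621 with several symbols and 5446 with none were left out, and no member was named only there. Genes were compared with limma 3.58.1 (lmFit and eBayes without trend, R 4.3.3), two-sided, with Benjamini-Hochberg adjustment over all genes and a threshold of 0.05. No filter was used, and the planned percentile filter was not run, because centred values give no level for each gene; the step of the stored numbers gives only whether a gene was at 8 or above, by inference. A coarser step means multiples of 2 to the power of -20 within 0.25 of a step. In simulated data over 19938 genes, 67, 67 and 66 genes were changed by 0.5, 1 and 2 (log2). The test recovered 55.2%, 92.5% and 100% of them. In the real data 6380 genes passed, far more than were changed in the simulation, so these rates need not hold there. The members and lists were chosen with earlier results of these data known. Every member could be named; of the other pathway lists the 5 genes with the smallest p were named. Figures used Python and matplotlib. Arrays carry no counts, so their number limits the precision.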

Additional observations from a re-analysis of the deposited data

How the results depend on the processing

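Of the 24 members past the test, 22 kept their direction and their call in each of the up to 15 other fits in which they were tested; the exceptions were Fzd4 and Ror1, described above with their values. The counts of members that fell and rose ran from 19 to 21 and from 4 to 4 when each tumour was left out in turn, the count over all genes from 4199 (without control replicate 1) to 6593, and those of the secretion class that fell from 0 to 1. With the replicate block 18 members fell and 4 rose, and 4257 genes passed. Same-numbered tumours of the titles did not deviate together (correlations over genes of -0.29, -0.31 and -0.22). The deviations within such small groups are tied to each other, so these correlations cannot decide whether the numbers pair the tumours. At an adjusted p under 0.01, the number of all genes called was 3511 and 5 receptors and co-receptors fell. With array weights, which were 7.69 for control tumour 1 and from 0.51 to 0.99 for the other tumours, 7931 genes passed. That fit thus leans mostly on control tumour 1 within its group. In the secretion class Porcn fell, 1 of 2, with these weights, without hypomethylated replicate 1 and with an adjusted p under 0.10. Porcn also fell in both fits added after the data were seen. Lrp6 passed with an adjusted p under 0.10 and in the second of those fits. The first of these, on genes at 8 or above by the step of the stored values, tests fewer genes: 2 members rose, 1 receptor rose, 5 receptors and co-receptors fell and 0 inhibitors and Kremen genes rose. The second took the number in the sample descriptions as a random block. Its estimated correlation was -0.17, and it left 22 members lower and 4 higher. It called more genes than the main fit, 7941 against 6380. Since no number spans both genotypes, it cannot separate a shared origin of tumours from the genotype. Of the members without a call, 18 were followed over the other fits, up to 4 per class with the largest differences. The rest of the members without a call were not followed. Among the 18, 8 changed sign in some fit without 1 tumour, and no member with a call did. Over these fits the differences ran from -0.016 to 0.083 for Rspo1, from -0.078 to 0.106 for Rspo3, from -0.047 to 0.123 for Rspo4, from -0.173 to 0.060 for Fzd1, from -0.119 to 0.0081 for Fzd8, from -0.666 to 0.146 for Sfrp1, from -0.0074 to 0.097 for Sfrp4 and from -0.108 to 0.011 for Sfrp5. The planned filter on level could not be run on centred values.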

Other observations

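Among the 30 members without a call, control tumour 2 was the lowest control in 20 (66.7%) and control tumour 3 the highest in 23 (76.7%), against 46.6% and 46.3% of all genes that did not pass; both held together in 16 members (53.3%) and in 31.3% of those genes. The difference between these shares was not tested. Of the 20 members that fell, control tumour 3 had the highest value in 12. Of the 4 members that rose, control tumour 2 had the lowest value in all 4. The shares over all genes that fell or rose were not counted, so these counts are not read as a trait of the members.

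The median SD within a group was 0.14 over the members on the log2 scale and 0.10 over all genes; it ran from 0.02 to 0.65 among the members, with Sfrp1 the highest. Among all the pathway lists Apcdd1, a membrane inhibitor of Wnt signalling, showed the largest fall, with a difference of -1.99 ± 0.27 (SE) on the log2 scale, or 3.98-fold (limma, adjusted p = 0.00225); it was picked after the values were seen.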
